A study of Mus musculus with 16 samples.

Results

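The genes described are the G protein subunits and the proteins that switch G protein signalling off: the G alpha, G beta and G gamma subunits, the regulators of G protein signalling (RGS), the G protein-coupled receptor kinases (GRK) and the beta-arrestins. They were picked by symbol and not by a threshold on any measured value, although earlier results of these data were known. Of the 26625 entries of the gene table, 56 known genes belonged to these families, and 51 of them had enough reads to be tested. RNA came from the medial prefrontal cortex (mPFC) of 16 mice and was sequenced as full-length cDNA on the Nanopore platform. The mice were male C57BL/6 animals aged 8 to 10 weeks. All of them carried an adeno-associated virus in the mPFC that expresses a short hairpin RNA from the U6 promoter and EGFP from the CMV promoter, neither of which is limited to neurons. The hairpin was either a negative control (Ctrl) or one against Kdm7a, a histone lysine demethylase. Mice were conditioned for 10 days with saline alone or with morphine on alternating days, and tissue was taken on day 7 of withdrawal. With the control virus there were 3 saline mice (Ctrl + Saline) and 4 morphine mice (Ctrl + Morphine). With the knockdown virus there were 5 saline mice (Kdm7a-shRNA + Saline) and 4 morphine mice (Kdm7a-shRNA + Morphine).

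An activated receptor makes a G alpha subunit exchange GDP for GTP and part from the G beta-gamma pair, and both then act on effectors such as adenylyl cyclase, phospholipase C beta and inwardly rectifying potassium channels. RGS proteins speed up GTP hydrolysis by G alpha and so shorten the signal, while GRKs phosphorylate the active receptor and beta-arrestins bind it, which uncouples it from the G protein. The mu opioid receptor, on which morphine acts, couples to the Gi, Go and Gz subunits, and RGS4, RGS9, G beta 5 and beta-arrestin 2 are known regulators of its signalling.

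Between 6596991 and 12418112 reads were counted per mouse, and the 56 members held 0.57% to 0.735% of them. Levels are given as CPM, the deposited counts scaled per 1000000 reads of the TMM-adjusted library size. Each read covers a full-length cDNA, so CPM was not divided by transcript length. Kdm7a itself had 9.42 ± 0.353 CPM (SD, n = 3) in Ctrl + Saline and 5.55 ± 0.571 CPM (SD, n = 5) in Kdm7a-shRNA + Saline mice, a log2 fold change of -0.76 that passed the test (adjusted p = 0.0153). Under morphine it had 7.72 ± 1.13 CPM (SD, n = 4) and 4.94 ± 1.53 CPM (SD, n = 4), and the log2 fold change of -0.67 did not pass (adjusted p = 0.0506). To pass, a gene needed an adjusted p under 0.05 in edgeR's quasi-likelihood test together with at least a 1.5-fold difference. The summed level of 4 markers of neurons (Snap25, Syt1, Rbfox3 and Stmn2) lay between 1470 and 2630 CPM in the 16 mice. These genes mark neurons of any region, so their sum cannot check the tissue label. The sum of 8 markers of striatal projection neurons was 72.9 to 94.5 CPM in Ctrl + Saline and 125 to 153 CPM in Ctrl + Morphine mice. It was 69.4 to 170 CPM in Kdm7a-shRNA + Saline and 85.1 to 116 CPM in Kdm7a-shRNA + Morphine mice. The gap between Ctrl + Saline and Ctrl + Morphine mice lay mainly in 1 gene of the list, Ppp1r1b, with means of 51.3 and 103 CPM. Pde10a had means of 19.5 and 20.6 CPM, Drd1 of 7.43 and 9.68 CPM, and the others of at most 3.27 CPM.

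Under saline, 8 of the 51 tested members changed with the Kdm7a shRNA. Arrb2, Gna15, Gnai2, Gng12, Gng13, Gng5 and Rgs10 rose and Rgs17 fell. Under morphine 3 members changed, with Gnaq and Gng5 higher and Gnb4 lower. Gng5 was the member that passed in both knockdown comparisons, which use different mice. Leaving out 1 mouse moved the number of members that passed to between 5 (without Ctrl + Saline mouse 2) and 11 (without Kdm7a-shRNA + Saline mouse 4) under saline, and to between 1 (without Ctrl + Morphine mouse 4) and 8 (without Kdm7a-shRNA + Morphine mouse 4) under morphine. These counts lay near the background of the whole table. The members' share that passed was 15.7% under saline, against 16.7% of all tested genes and 12% of the known genes tested. Under morphine it was 5.88%, against 7.69% of all tested genes and 4.64% of the known genes tested. By direction, 7 members rose and 1 fell under saline, where 7.43% of all tested genes rose and 9.31% fell, and 9% of the known genes rose and 2.98% fell. Under morphine 2 members rose and 1 fell, against 2.86% and 4.83% of all tested genes and 3.37% and 1.27% of the known genes. More of the known genes rose than fell in both comparisons, as among the members, which are all known genes. The median log2 fold change of the members was 0.03 under saline and 0.07 under morphine. Over all tested genes it was 0.01 and 0, and over the known genes 0.1 and 0.04. In 36 of the 51 members (70.6%) the fold change had the same sign in both knockdown comparisons, as it did in 67.9% of all tested genes.

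**Figure D1:**
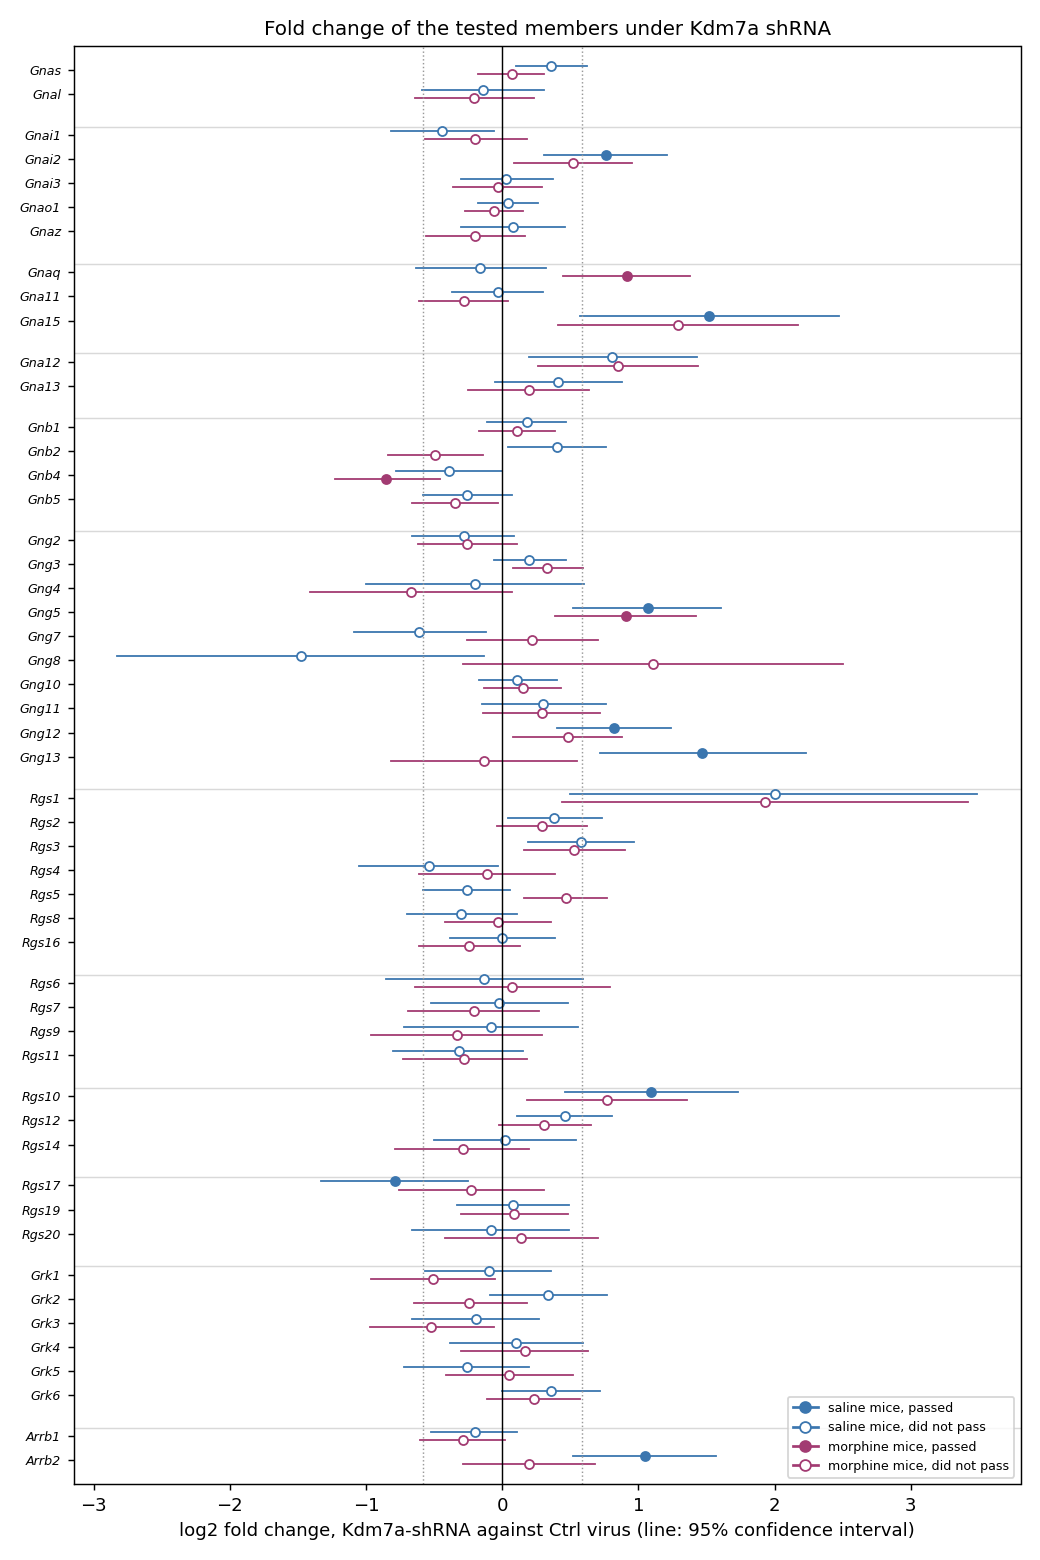
Log2 fold change of each of the 51 tested members with Kdm7a shRNA against the control virus (x axis), in saline mice (blue) and in morphine mice (purple), with the 95% confidence interval as a line, grouped by family. Filled points passed the test, and dotted lines mark a fold change of 1.5; most points lie near 0, and Gng5 is filled in both colours.

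The stimulatory subunits did not pass in any comparison. Gnas encodes G alpha s, the activator of adenylyl cyclase, and took more reads than any other member. It had 2710 ± 354 CPM (SD, n = 3) in Ctrl + Saline, 3350 ± 324 (SD, n = 4) in Ctrl + Morphine, 3470 ± 282 (SD, n = 5) in Kdm7a-shRNA + Saline and 3510 ± 514 CPM (SD, n = 4) in Kdm7a-shRNA + Morphine. Its log2 fold change with knockdown under saline was 0.36 at an adjusted p of 0.0455, below the fold threshold, and it was 0.07 under morphine. Its annotated exons share 1469 bases with the protein-coding gene Gm20721 and 988 bases with the antisense gene Nespas, both on the opposite strand. Gnal, which encodes the olfactory form G alpha olf, had group means of 19.2 to 23.9 CPM.

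Of the 5 inhibitory subunits of the kind through which the opioid receptor signals, Gnai2 passed in the knockdown comparison under saline, and the other 4 did not pass in any comparison. Gnai2 (GRCm38 chr9:107614125-107635367, minus strand) encodes G alpha i2, which lowers cAMP by inhibiting adenylyl cyclase and is abundant in immune cells and glia as well as neurons. It had 61.6, 58.3 and 31.8 CPM in the 3 Ctrl + Saline mice and 89.3, 100, 104, 60.7 and 74.0 CPM in the 5 Kdm7a-shRNA + Saline mice. It had 56.2, 51.2, 50.3 and 42.0 CPM in Ctrl + Morphine and 63.6, 59.5, 92.1 and 70.3 CPM in Kdm7a-shRNA + Morphine mice. Saline mouse 4 with the knockdown virus lay inside the range of its controls, and under morphine the groups did not overlap. For Gnai2 the log2 fold change was 0.76 under saline (SE 0.215, adjusted p = 0.0200) and 0.52 under morphine (SE 0.204, adjusted p = 0.118). The difference between both did not pass (-0.24, adjusted p = 0.839). Without Ctrl + Saline mouse 3, the lowest, the saline value was 0.49 and did not pass. Gnai1, which encodes the closely related G alpha i1, had the opposite sign under saline, -0.44 (adjusted p = 0.0967). The reads of Gnai2 per read of Gnai1 were 0.215 ± 0.0695 (SD, n = 3) in Ctrl + Saline and 0.532 ± 0.218 (SD, n = 5) in Kdm7a-shRNA + Saline mice. These groups overlapped, at 0.144 to 0.283 and 0.256 to 0.813. Ctrl + Morphine and Kdm7a-shRNA + Morphine mice also overlapped, at 0.194 to 0.292 and 0.254 to 0.654. Gnai3 stayed between 11 and 11.5 CPM in the group means.

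Gnao1 and Gnaz were followed in every mouse because they encode G alpha o, the main G alpha of neurons, and the pertussis toxin-insensitive G alpha z. Gnao1 had 137, 138 and 117 CPM in Ctrl + Saline, 143, 162, 137 and 144 in Ctrl + Morphine, 142, 127, 120, 148 and 131 in Kdm7a-shRNA + Saline, and 131, 146, 131 and 153 CPM in Kdm7a-shRNA + Morphine mice. The 4 groups overlapped, and its log2 fold changes were 0.04 (95% confidence interval -0.18 to 0.26) with knockdown under saline, -0.06 (-0.27 to 0.15) under morphine and 0.17 with morphine under the control virus. Gnaz had 25.4, 24.8 and 25.7 CPM in Ctrl + Saline, 29.8, 36.1, 23.6 and 33.5 in Ctrl + Morphine, 33.7, 23.5, 22.8, 29.7 and 23.9 in Kdm7a-shRNA + Saline, and 21.5, 25.1, 25.1 and 35.8 CPM in Kdm7a-shRNA + Morphine mice. The 3 Ctrl + Saline mice lay within 1 CPM of each other and inside the range of each other group. Its log2 fold change was 0.08 under saline (95% confidence interval -0.3 to 0.46) and -0.2 under morphine (-0.56 to 0.17). The direction of both genes under saline turned with the scaling of the libraries, to -0.09 for Gnao1 and -0.05 for Gnaz on library size alone.

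Of the subunits that drive phospholipase C beta, Gnaq passed under morphine and Gna15 under saline. Gnaq (chr19:16132831-16387463, plus strand) encodes G alpha q. It had 33.2, 63.5 and 47.2 CPM in Ctrl + Saline, 30.4, 47.5, 35.1 and 27.8 in Ctrl + Morphine, 38.3, 41.0, 44.3, 55.3 and 36.8 in Kdm7a-shRNA + Saline, and 82.1, 72.1, 43.2 and 69.0 CPM in Kdm7a-shRNA + Morphine mice. The high values were in 3 of the 4 knockdown mice under morphine, and the fourth, mouse 3, lay inside the Ctrl + Morphine range. The log2 fold change under morphine was 0.92 (SE 0.222, adjusted p = 0.0174), and under saline it was -0.16 (SE 0.226, adjusted p = 0.667). The difference between both, the interaction of knockdown and treatment, was 1.07 (SE 0.315) and did not pass (adjusted p = 0.187). The call under morphine was lost without Ctrl + Morphine mouse 1 (0.85), without Ctrl + Morphine mouse 4 (0.82) or without Kdm7a-shRNA + Morphine mouse 1 (0.8).

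Gna15 (chr10:81502306-81524225, minus strand) encodes G alpha 15, a G alpha q relative found mainly in blood-derived cells. It was read rarely, 7 to 56 times per mouse. It had 9, 7 and 11 reads (1.19, 0.683 and 1.46 CPM) in Ctrl + Saline and 23, 25, 33, 17 and 43 reads (2.64, 2.88, 3.91, 1.91 and 4.32 CPM) in Kdm7a-shRNA + Saline mice, and these groups did not overlap. It had 1.8, 0.854, 0.852 and 0.856 CPM in Ctrl + Morphine and 2.6, 1.92, 4.81 and 1.21 CPM in Kdm7a-shRNA + Morphine mice, which overlapped. For Gna15 the log2 fold change was 1.52 under saline (SE 0.45, adjusted p = 0.0244) and 1.29 under morphine (SE 0.418, adjusted p = 0.0607). The saline call was lost without any 1 of the 3 Ctrl + Saline mice (1.54, 1.24 and 1.74) or without Kdm7a-shRNA + Saline mouse 5 (1.37). Gna11, the ubiquitous relative of Gnaq, had log2 fold changes of -0.03 and -0.28, and Gna14 was read at most 8 times in a mouse and was not tested. Gna12 and Gna13 encode the subunits that act on guanine nucleotide exchange factors. Gna12 had group means of 8.61 and 15.3 CPM under saline and 7.65 and 13.8 CPM under morphine. Its log2 fold changes of 0.81 (adjusted p = 0.0575) and 0.85 (adjusted p = 0.0635) did not pass, and those of Gna13 were 0.41 and 0.2.

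Of the G beta subunits, Gnb4 changed under morphine. Gnb4 (chr3:32580332-32616585, minus strand) encodes G beta 4. It had 20, 17, 16.2 and 22.5 CPM in Ctrl + Morphine and 8.89, 11.4, 12.7 and 8.72 CPM in Kdm7a-shRNA + Morphine mice. Under saline it had 18.5, 14.2 and 15.1 CPM with the control virus and 12.8, 13.9, 8.18, 14.2 and 11.7 CPM with the knockdown virus. The knockdown mice were below their controls without overlap under both treatments, although under saline the nearest mice of both groups were equal at 3 digits. For Gnb4 the log2 fold change was -0.85 under morphine (SE 0.184, adjusted p = 0.0105) and -0.39 under saline (SE 0.187, adjusted p = 0.147), and the difference between them did not pass (-0.46, adjusted p = 0.572). The morphine call held with each of the 8 mice left out in turn, at -0.96 to -0.76. Its share of all G beta reads was 2.04% ± 0.318 (SD, n = 4) in Ctrl + Morphine and 1.25% ± 0.318 (SD, n = 4) in Kdm7a-shRNA + Morphine mice.

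Gnb5 encodes G beta 5, the obligate partner of the R7 family of RGS proteins. It had 134, 142 and 138 CPM in Ctrl + Saline, 140, 191, 146 and 158 in Ctrl + Morphine, 125, 99.1, 94.8, 149 and 109 in Kdm7a-shRNA + Saline, and 126, 128, 97.3 and 148 CPM in Kdm7a-shRNA + Morphine mice. Mouse 4 with the knockdown virus exceeded the Ctrl + Saline mice under saline, so the groups overlapped. The log2 fold changes of -0.26 under saline (adjusted p = 0.254) and -0.35 under morphine (adjusted p = 0.155) did not pass. Gnb1, with group means of 450 to 510 CPM, had log2 fold changes of 0.18 and 0.11. Gnb2 had 0.4 under saline and -0.49 under morphine, and Gnb3, the form of cone photoreceptors, was read at most 2 times in a mouse and was not tested.

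Of the 10 tested G gamma genes, Gng5, Gng12 and Gng13 passed under saline and Gng5 passed under morphine. Of all tested genes 16.7% and 7.69% passed in these comparisons, and of the known genes 12% and 4.64%. G gamma forms a stable pair with G beta and anchors it to the membrane through a lipid group. The 10 G gamma genes together had 541 to 582 CPM in Ctrl + Saline, 544 to 592 in Ctrl + Morphine, 703 to 790 in Kdm7a-shRNA + Saline, and 646 to 743 CPM in Kdm7a-shRNA + Morphine mice, so the knockdown mice lay above the control mice under both treatments. This sum is a description and was not tested. Under saline the group means of Gng5, Gng12 and Gng13 went from 68.2, 91.6 and 31.5 CPM to 143, 162 and 87 CPM. Gng2, Gng4, Gng7 and Gng8 had negative log2 fold changes under saline, and 6 of the 10 genes had positive ones.

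Gng5 (chr3:146499807-146505572, plus strand) encodes G gamma 5, a widely expressed form. It had 74.7, 54.8 and 75.0 CPM in Ctrl + Saline and 111, 158, 188, 85.2 and 170 CPM in Kdm7a-shRNA + Saline mice. Under morphine it had 74.8, 47.2, 65.0 and 54.3 CPM with the control virus and 97.8, 100, 170 and 84.0 CPM with the knockdown virus. The groups did not overlap under saline or under morphine. The log2 fold change was 1.07 (SE 0.260, adjusted p = 0.00916) under saline and 0.91 (SE 0.244, adjusted p = 0.0275) under morphine. The saline call was lost without Ctrl + Saline mouse 2 (0.94). The morphine call was lost without Ctrl + Morphine mouse 2 (0.8), mouse 3 (0.94) or mouse 4 (0.86), without Kdm7a-shRNA + Morphine mouse 3 (0.64), and when known genes alone were fitted (0.86, adjusted p = 0.0548). Gng5 made up 12.2% ± 1.78 (SD, n = 3) of the G gamma reads in Ctrl + Saline, 10.8% ± 2.49 (SD, n = 4) in Ctrl + Morphine, 19% ± 5.14 (SD, n = 5) in Kdm7a-shRNA + Saline and 16% ± 4.55 (SD, n = 4) in Kdm7a-shRNA + Morphine mice.

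Gng12 (chr6:66896397-67021350, plus strand) encodes G gamma 12, a form known from astrocytes and microglia. It had 106, 77.4 and 91.1 CPM in Ctrl + Saline and 147, 171, 182, 130 and 177 CPM in Kdm7a-shRNA + Saline mice, without overlap. Under morphine it had 87.4, 97.0, 87.8 and 93.4 CPM with the control virus and 125, 107, 192 and 84.9 CPM with the knockdown virus, with mouse 4 of the latter below its controls. For Gng12 the log2 fold change was 0.82 under saline (SE 0.200, adjusted p = 0.00913) and 0.48 under morphine (SE 0.188, adjusted p = 0.116). Without Ctrl + Saline mouse 2 it was 0.72 and did not pass.

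Gng13 (chr17:25717171-25719406, plus strand) encodes G gamma 13, best known from taste and olfactory cells. Its levels were 55.6, 14.2 and 24.6 CPM in Ctrl + Saline, 62.2, 77.3, 60.5 and 86.2 in Ctrl + Morphine, 121, 74.4, 71.3, 99.0 and 69.5 in Kdm7a-shRNA + Saline, and 50.4, 105, 43.0 and 62.5 CPM in Kdm7a-shRNA + Morphine mice. The Ctrl + Saline mice were the low group, and they did not overlap with Ctrl + Morphine or with Kdm7a-shRNA + Saline mice. Its log2 fold change with knockdown was 1.47 under saline (SE 0.359, adjusted p = 0.00919) and -0.13 under morphine (SE 0.325, adjusted p = 0.836). With morphine under the control virus it was 1.19 and did not pass (adjusted p = 0.208). The interaction was -1.61 (SE 0.479) and did not pass (adjusted p = 0.193). The saline call was lost without Ctrl + Saline mouse 3 (1.31), and the value ranged from 1.12 without Ctrl + Saline mouse 2 to 2.13 without mouse 1 of that group. The annotated exons of Gng13 share 399 bases with Chtf18 on the opposite strand. Chtf18, looked up after the values of Gng13 were seen, had a log2 fold change of 0.92 under saline (adjusted p = 0.0235), and reads from both genes cannot be told apart if strand was not used in counting, which is not given in the sources used here.

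The other G gamma genes did not pass. Gng7, which pairs with G alpha olf in the striatum, had a log2 fold change of -0.61 under saline (adjusted p = 0.0692) and 0.22 under morphine. Gng2, Gng3 and Gng4, forms known from neurons, had -0.28, 0.2 and -0.2 under saline and -0.26, 0.33 and -0.67 under morphine. Gng10 and Gng11 lay between 0.11 and 0.3 in both comparisons. Gng10 shares 946 exon bases with the overlapping gene Gm20503 on the same strand, so its reads are uncertain. Gng8 was read 1 to 19 times per mouse, and its values of -1.48 and 1.11 did not pass.

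**Figure D2:**
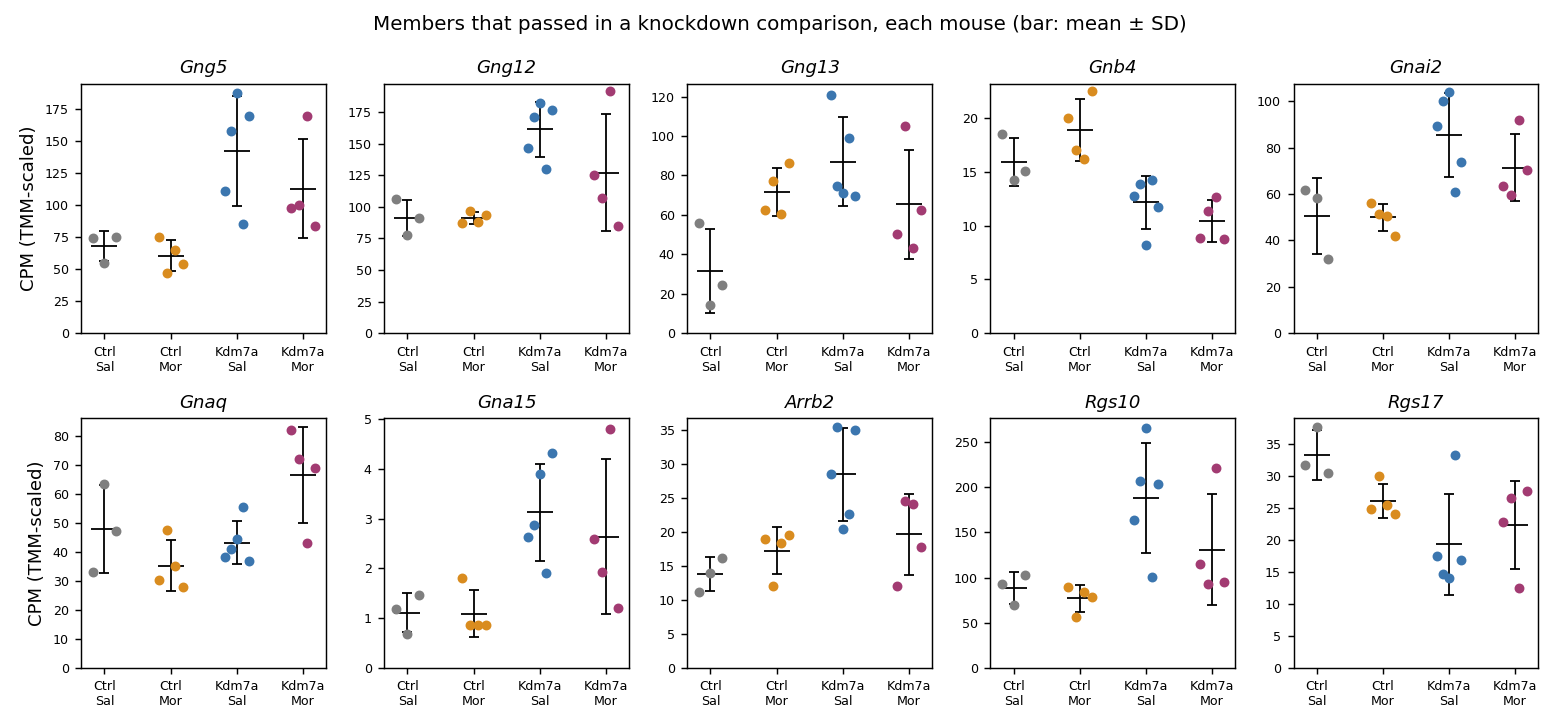
CPM on TMM-scaled library sizes (y axis, starting at 0) of the 10 members that passed in a knockdown comparison, in the mice of the 4 groups (x axis; Sal, saline; Mor, morphine). Each point is 1 mouse and the bar is the mean ± SD; Gng5 is higher in the knockdown mice under both treatments, and Gng13 is low in the 3 Ctrl + Saline mice, at 14.2 to 55.6 CPM.

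The RGS family gave 1 call in each direction, both under saline. The first was Rgs10 (chr7:128373621-128418758, minus strand), a small RGS protein of the R12 family that is abundant in microglia and acts on G alpha i. It had 92.9, 69.4 and 103 CPM in Ctrl + Saline and 164, 207, 266, 101 and 204 CPM in Kdm7a-shRNA + Saline mice. Mouse 4 of the knockdown group was the one inside the control range. Under morphine it had 89.7, 56.3, 83.7 and 78.0 CPM with the control virus and 115, 92.4, 222 and 94.9 CPM with the knockdown virus, without overlap. The log2 fold change was 1.09 under saline (SE 0.301, adjusted p = 0.0173) and 0.77 under morphine (SE 0.282, adjusted p = 0.0926). It was 0.95 without Ctrl + Saline mouse 2 and then did not pass, and under morphine it was 0.39 without Kdm7a-shRNA + Morphine mouse 3. The other R12 members, Rgs12 and Rgs14, had 0.46 and 0.02 under saline.

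The second was Rgs17 (chr10:5825663-5922400, minus strand), an RZ-family protein that acts on G alpha z, G alpha i and G alpha o. It had 31.7, 37.7 and 30.5 CPM in Ctrl + Saline and 17.5, 14.7, 14.1, 33.3 and 16.9 CPM in Kdm7a-shRNA + Saline mice. Mouse 4 again lay inside the control range, and the other 4 lay below it. Under morphine it had 24.8, 30.0, 25.4 and 24.1 CPM with the control virus and 22.8, 26.6, 12.5 and 27.6 CPM with the knockdown virus. For Rgs17 the log2 fold change was -0.79 under saline (SE 0.257, adjusted p = 0.0385) and -0.23 under morphine (SE 0.254, adjusted p = 0.622). It passed in 1 of the 8 fits that left out a mouse, the one without Kdm7a-shRNA + Saline mouse 4 (-1.08), and was lost without each of the other 7 mice (-0.87 to -0.68). Rgs19 and Rgs20 of the same family had 0.08 and -0.08 under saline.

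Rgs4, an R4-family protein of cortical neurons, and Rgs9, a striatum-enriched R7-family protein, were followed in every mouse because both limit opioid receptor signalling. Rgs4 had 473, 404 and 595 CPM in Ctrl + Saline, 346, 515, 447 and 454 in Ctrl + Morphine, 397, 316, 267, 452 and 256 in Kdm7a-shRNA + Saline, and 412, 409, 220 and 592 CPM in Kdm7a-shRNA + Morphine mice. Of the 5 knockdown mice under saline, 4 were below each Ctrl + Saline mouse. The log2 fold change was -0.54 (95% confidence interval -1.05 to -0.03, adjusted p = 0.121) under saline and -0.11 (-0.61 to 0.39) under morphine. Rgs9 had 14.7, 15.4 and 14 CPM in Ctrl + Saline, 14.7, 11, 15.6 and 14.8 in Ctrl + Morphine, 10, 18.1, 7.58, 10.9 and 22.8 in Kdm7a-shRNA + Saline, and 13.3, 15.9, 8.16 and 7.25 CPM in Kdm7a-shRNA + Morphine mice. Its spread was wider in the knockdown mice, and the log2 fold changes were -0.08 (95% confidence interval -0.72 to 0.56) and -0.33 (-0.96 to 0.29). Kdm7a-shRNA + Saline mice 2 and 5, highest in Rgs9 in their group, also had its highest striatal projection neuron marker sums, 170 and 142 CPM. The part of the tissue taken in these values was not tested. The other R7 members, Rgs6, Rgs7 and Rgs11, had -0.13, -0.02 and -0.32 under saline and 0.07, -0.21 and -0.28 under morphine.

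Among the other R4 members, Rgs3 had an adjusted p of 0.0334 under saline at a log2 fold change of 0.58, just under the fold threshold, and 0.53 (adjusted p = 0.0633) under morphine. Rgs1, a regulator known from B cells and microglia, was read 0 to 42 times per mouse. It had 0, 18 and 1 reads in Ctrl + Saline and 15, 34, 36, 8 and 34 reads in Kdm7a-shRNA + Saline mice. Its log2 fold changes of 2 (SE 0.712, adjusted p = 0.0553) and 1.93 (SE 0.708, adjusted p = 0.0933) did not pass. Rgs2, Rgs5, Rgs8 and Rgs16 had 0.38, -0.26, -0.3 and 0 under saline, and 0.29, 0.47, -0.03 and -0.24 under morphine. Rgs13, Rgs18 and Rgs22 were read at most 5 times in a mouse and were not tested.

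Of the 6 receptor kinases none passed in either knockdown comparison. The summed GRK level was 103 to 130 CPM in Ctrl + Saline, 118 to 201 in Ctrl + Morphine, 111 to 170 in Kdm7a-shRNA + Saline and 131 to 143 CPM in Kdm7a-shRNA + Morphine mice. Grk2, the kinase that G beta-gamma recruits to the membrane, had a log2 fold change of 0.34 (adjusted p = 0.258) under saline and -0.24 (adjusted p = 0.488) under morphine. Its close relative Grk3 had -0.19 and -0.52 (adjusted p = 0.140), and Grk1 had -0.1 and -0.51 (adjusted p = 0.147). Grk4, Grk5 and Grk6 lay between -0.26 and 0.36.

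Arrb2 rose with the knockdown under saline, with the smallest adjusted p of the members in that comparison. Arrb2 (chr11:70432635-70440828, plus strand) encodes beta-arrestin 2, which desensitizes the mu opioid receptor. It had 11.2, 14.0 and 16.2 CPM in Ctrl + Saline and 28.6, 35.5, 20.5, 22.7 and 35 CPM in Kdm7a-shRNA + Saline mice. Under morphine it had 19.0, 12.1, 18.4 and 19.5 CPM with the control virus and 12, 24.6, 24.1 and 17.8 CPM with the knockdown virus. The saline groups did not overlap and the morphine groups did. For Arrb2 the log2 fold change was 1.05 under saline (SE 0.248, adjusted p = 0.00784) and 0.20 under morphine (SE 0.232, adjusted p = 0.643), and the interaction of -0.85 (SE 0.336) did not pass (adjusted p = 0.350). The saline call held with each of the 8 mice left out in turn, at 0.88 to 1.15. Arrb1, which encodes beta-arrestin 1, had -0.2 under saline and -0.29 (adjusted p = 0.220) under morphine. The reads of Arrb2 per read of Arrb1 were 0.149 to 0.231 in Ctrl + Saline, 0.127 to 0.262 in Ctrl + Morphine, 0.315 to 0.61 in Kdm7a-shRNA + Saline and 0.196 to 0.456 in Kdm7a-shRNA + Morphine mice. These ratios do not depend on how libraries were scaled.

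**Figure D3:**
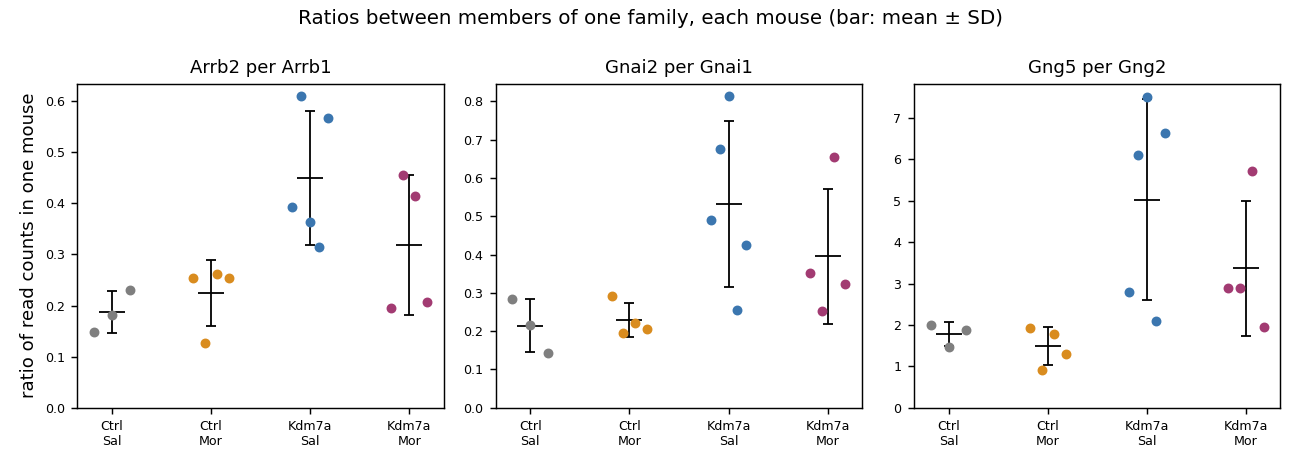
Ratio of read counts within each mouse (y axis, starting at 0) for Arrb2 per Arrb1, Gnai2 per Gnai1 and Gng5 per Gng2, in the 4 groups (x axis; Sal, saline; Mor, morphine). Each point is 1 mouse and the bar is the mean ± SD; the 5 Kdm7a-shRNA + Saline mice lie between 0.315 and 0.61 for Arrb2 per Arrb1, above the 3 Ctrl + Saline mice.

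Members were also counted by whether the mice of both groups overlapped. Under saline 8 members (15.7%) were higher without overlap, against 11.1% of all tested genes and 13.2% of the known genes, and 1 member (1.96%) was lower, against 12.7% and 6.36%. Under morphine 5 members (9.8%) were higher, against 6.37% and 7.08%, and 2 members (3.92%) were lower, against 7.51% and 4.82%. The share of lower members under saline lay below both backgrounds, by a count of few genes and with no test. Beside Gng5, Gng12, Gng13, Gna15 and Arrb2, those higher under saline were Gnas, Rgs2 and Rgs3. Beside Gng5, those higher under morphine were Gnai2, Rgs1, Rgs5 and Rgs10.

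Marker genes of microglia moved with several of these members. All 6 markers of the list (Cx3cr1, P2ry12, Csf1r, Tmem119, C1qa and Aif1) were detected in each group, 5 of them rose under saline and 3 under morphine, and their median log2 fold changes were 1.08 and 1. Their summed level was 561 to 671 CPM in Ctrl + Saline, 311 to 601 in Ctrl + Morphine, 803 to 2310 in Kdm7a-shRNA + Saline and 556 to 2180 CPM in Kdm7a-shRNA + Morphine mice. The 5 mice with the highest sums, 1120 to 2310 CPM, were Kdm7a-shRNA + Saline mice 1, 2, 3 and 5 and Kdm7a-shRNA + Morphine mouse 3. The same 5 mice had the highest levels of Rgs10, 164 to 266 CPM against at most 115 in the other mice, and of Gng5, 111 to 188 CPM against at most 100. Kdm7a-shRNA + Saline mouse 4, with the lowest sum of its group (803 CPM), had the lowest Rgs10, Gng5, Gng12, Gnai2 and Gna15 of its group and the highest Rgs17. That mouse also had the highest neuron marker sum of its group, 2440 CPM, and the lowest astrocyte and endothelial marker sums, 8090 and 65.5 CPM. Gnaq did not follow the order of the microglia sums, and Arrb2 followed it in part. The highest Arrb2 levels were those of Kdm7a-shRNA + Saline mice 1, 2 and 5, which are among the 5 mice with the highest microglia sums. Gnaq was lowest in its group, at 43.2 CPM, in the Kdm7a-shRNA + Morphine mouse with the sum of 2180 CPM. Arrb2 was lowest in its group, at 20.5 CPM, in the Kdm7a-shRNA + Saline mouse with the sum of 2310 CPM. In bulk tissue more cells of a type and more RNA per cell cannot be told apart, and the part of microglia in these results was not tested.

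**Figure D4:**
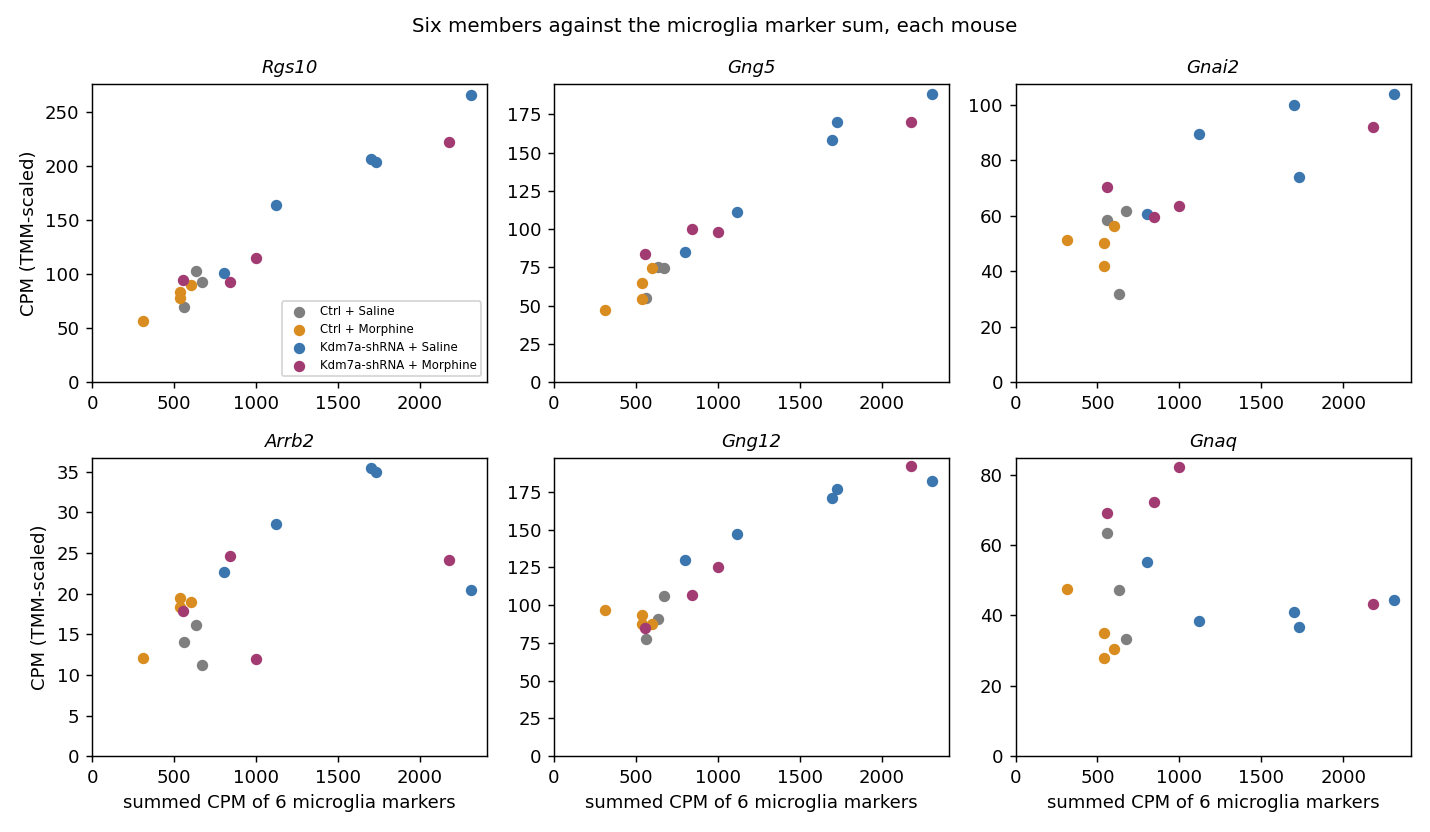
CPM of 6 members (y axis) against the summed CPM of 6 microglia markers (x axis) in the 16 mice, coloured by group. Rgs10 and Gng5 are highest in the 5 mice with sums of 1120 to 2310 CPM, while Gnaq is spread and Arrb2 is highest in some of these 5 mice only.

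In each of the other marker lists fewer genes passed than in the microglia list. Of 4 endothelial markers 3 rose under saline and 1 under morphine, with median log2 fold changes of 0.66 and 0.18. Of 5 astrocyte markers 1 (Gfap) rose under saline. Their medians were 0.29 under saline and 0.57 under morphine, where 2 were higher at an unadjusted p under 0.05. Of 6 mural cell markers 0 passed, and their median log2 fold changes were 0.29 under saline and 0.71 under morphine, where 4 were higher at an unadjusted p under 0.05. Of 5 tested lymphocyte markers 0 passed, with medians of 0.58 under saline and 0.92 under morphine. Their summed level was low, 3.18 to 13.5 CPM. Of 5 oligodendrocyte markers 0 passed, with medians of 0.34 and 0.35. Of 4 markers of meningeal fibroblasts Col1a1 rose under saline, and the medians were 0.4 and 0.44. The 4 neuron markers had median log2 fold changes of -0.21 under saline and -0.04 under morphine with none passing. Among genes of excitatory neurons, Camk2a had a log2 fold change of -0.72 (adjusted p = 0.0612), Neurod6 of -0.73 (adjusted p = 0.0533) and Slc17a7 of 0.08 (adjusted p = 0.777) under saline, and they had -0.22, -0.41 and -0.31 under morphine, where none passed either. Of 6 interneuron markers Pvalb and Slc32a1 rose and Vip and Gad2 fell under saline, and Pvalb rose under morphine. Their part in the members' changes was not tested. The control virus and knockdown virus libraries differed in TMM factors, 1.02 to 1.07 against 0.913 to 0.991. On library size alone the median over all tested genes moved by -0.11 under morphine and -0.13 under saline, so the fold changes given are relative to the TMM-scaled median.

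The genes next to the members in the pathway were counted in 2 lists. Of 15 tested chaperones and regulators of G proteins, Gpsm3 rose and Gpr158 fell with the knockdown under saline. Gpsm3, a G alpha i modulator of blood cells, had a log2 fold change of 1.26 (SE 0.388, adjusted p = 0.0298). Gpr158, a receptor that binds the RGS7 and G beta 5 complex, went from 45.2 ± 2.97 CPM (SD, n = 3) to 24.6 ± 10.8 CPM (SD, n = 5), with a log2 fold change of -0.87 (SE 0.27, adjusted p = 0.0296). Of 23 tested effectors, Adcy7, an adenylyl cyclase, rose under saline by 0.94 (SE 0.256, adjusted p = 0.0161). Kcnj9, a subunit of the G protein-gated potassium channel that beta-gamma opens, was lower in the knockdown mice under morphine, at 26.9 ± 2.88 CPM (SD, n = 4) against 41.9 ± 6.81 CPM (SD, n = 4), with a log2 fold change of -0.65 (SE 0.175, adjusted p = 0.0280). The other 13 regulators and the other 21 effectors passed in neither knockdown comparison. Of all tested genes 16.7% passed under saline and 7.69% under morphine, and of the known genes 12% and 4.64%. Over both lists, leaving out 1 mouse moved the number that passed from 3 to between 1 (without Ctrl + Saline mouse 2) and 8 (without Kdm7a-shRNA + Saline mouse 4) under saline, and from 1 to between 0 (without Ctrl + Morphine mouse 1) and 2 (without Kdm7a-shRNA + Morphine mouse 4) under morphine.

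The upstream sequences of 4 members that changed are shown because these genes moved in the knockdown comparisons and differ in base composition. Each is the 250 bases before the RefSeq transcript start (build GRCm38.p6), written 5′ to 3′ on the gene's strand, and capitals mark each CG dinucleotide, the site of DNA methylation. They are chr3:146499586-146499835 (plus strand) for Gng5, chr7:128418173-128418422 (minus) for Rgs10, chr10:5922401-5922650 (minus) for Rgs17 and chr10:81524226-81524475 (minus) for Gna15. The gene positions given above are from another annotation (GENCODE), whose starts differ for Gng5 and Rgs10. By those positions the Rgs10 window lies inside the gene, and the Gng5 window runs past the gene's start.
Gng5: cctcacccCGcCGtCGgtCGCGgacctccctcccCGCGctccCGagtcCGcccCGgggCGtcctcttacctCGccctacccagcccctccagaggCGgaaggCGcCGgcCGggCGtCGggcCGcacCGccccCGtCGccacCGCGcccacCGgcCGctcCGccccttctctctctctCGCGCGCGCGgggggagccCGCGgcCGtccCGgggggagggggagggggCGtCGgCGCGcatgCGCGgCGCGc
Rgs10: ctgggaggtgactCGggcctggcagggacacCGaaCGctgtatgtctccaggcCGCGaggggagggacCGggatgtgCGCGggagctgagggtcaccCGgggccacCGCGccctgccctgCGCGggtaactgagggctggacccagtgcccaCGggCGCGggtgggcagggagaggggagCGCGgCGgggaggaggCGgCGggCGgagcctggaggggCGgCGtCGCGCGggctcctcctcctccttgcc
Rgs17: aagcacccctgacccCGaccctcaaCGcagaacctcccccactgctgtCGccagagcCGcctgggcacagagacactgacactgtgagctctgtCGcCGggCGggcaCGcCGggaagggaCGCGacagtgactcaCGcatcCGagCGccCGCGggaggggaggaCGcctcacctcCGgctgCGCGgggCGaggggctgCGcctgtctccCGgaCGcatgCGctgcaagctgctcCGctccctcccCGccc
Gna15: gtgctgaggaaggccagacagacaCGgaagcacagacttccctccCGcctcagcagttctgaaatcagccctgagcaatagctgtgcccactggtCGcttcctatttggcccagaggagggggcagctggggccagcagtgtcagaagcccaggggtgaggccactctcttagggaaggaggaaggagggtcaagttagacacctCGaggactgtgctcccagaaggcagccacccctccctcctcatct

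The windows of Gng5, Rgs10 and Rgs17 held 44, 27 and 27 CG dinucleotides, and that of Gna15 held 4. The median was 17 over the 55 windows found for 40 members and 6 over all 32851 windows. The windows of Rgs17, which fell, and of Rgs10, which rose, held the same number of CG dinucleotides. Letters of known binding sites were searched on both strands. The cAMP response element TGACGTCA was in 0 of the 55 windows and in 1.55% of all windows. Its core TGACG was in 20% against 17.8%, and the PU box core GAGGAA, bound by the myeloid factor PU.1, was in 30.9% against 23.3%. Gna15 held GAGGAA 2 times, and the other 3 printed windows held neither GAGGAA nor TGACG. Gnai2, Arrb2 and Gnb4 had no entry.

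Morphine under the control virus moved no member past the test. Of the 51 members 0 passed, as did 0% of all tested genes, and DESeq2 also called 0 members. At an unadjusted p under 0.05 there were 7 members (Gnb2, Gng13, Grk2, Gnas, Gng8, Rgs5 and Gng7), 13.7% against 11.7% of all tested genes. Gnb2, which encodes the ubiquitous G beta 2, was the leading one, at 0.65 (SE 0.181, adjusted p = 0.166). It had 208, 164 and 164 CPM in Ctrl + Saline and 292, 310, 192 and 329 CPM in Ctrl + Morphine mice. Grk2 had 0.54 (adjusted p = 0.325). Without overlap 3 members were higher and 4 were lower, against 7.04% and 5.38% of all tested genes. Leaving out Ctrl + Saline mouse 1 made Gng13 pass.

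With the knockdown virus in both groups, morphine again moved 0 of the 51 members, by edgeR and by DESeq2, where 0.00531% of all tested genes passed. At an unadjusted p under 0.05 there were 4 members (Gnaq, Rgs5 and Rgs11 with positive values and Arrb2 with a negative one), 7.84% against 7.02% of all tested genes. Gnaq had 0.62 (adjusted p = 0.597) and Arrb2 -0.53 (adjusted p = 0.700).

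The interaction asks whether the knockdown effect differed between morphine and saline. By edgeR 0 of the 51 members passed, where 0.085% of all tested genes did, and 7 members had an unadjusted p under 0.05, 13.7% against 10.7% of all tested genes. Those with positive values were Gnaq (1.07), Gng7 (0.83), Gng8 (2.58) and Rgs5 (0.72), and those with negative values were Gnb2 (-0.89), Gng13 (-1.61) and Arrb2 (-0.85). DESeq2 called 1 member, Gnb2, which edgeR did not (SE 0.240, adjusted p = 0.144). Gnb2 was named after its values were seen. Its knockdown values were 0.4 under saline (adjusted p = 0.110) and -0.49 under morphine (adjusted p = 0.0702). None of the members with a call in 1 of both knockdown comparisons was thus shown to differ between them.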

How the data were processed

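RNA of the mPFC of 16 mice was sequenced on the Nanopore platform after cDNA-PCR library preparation. Per the labels and the methods, the authors kept reads of quality above 7 and at least 500 bases, aligned full-length reads to mm10 with minimap2 and clustered them into transcripts. The deposited counts are the reads the authors assigned to each gene, without normalization. The deposited CPM values are those counts divided by the column total, to within 4.99e-06, and were not tested.

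All tests used edgeR 4.0.16 (R 4.3.3): filterByExpr, TMM scaling and the quasi-likelihood F test in 1 fit over the 4 groups, with Benjamini-Hochberg adjusted p-values over 18826 genes. A standard error is the size of the log2 fold change over the square root of F. Alternatives were RLE factors, library size only, no filter, at least 10 counts in every mouse, the compared groups alone, DESeq2 1.42.0, a replicate block, known genes only and each mouse left out. Tested on simulated data for the saline knockdown comparison, the fit recovered 95.5% of 200 genes changed 4-fold among 18267 genes, with 9 unchanged genes passing. The largest change of a member that passed was 2.87-fold (Gna15 under saline). The figure for 4-fold changes does not give the recovery of such smaller changes or that in the other comparisons.

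The 56 members and all gene lists were chosen with earlier results of these data known. Members were named with every value if they passed in any comparison or were among 6 members fixed for known roles at the opioid receptor (Rgs4, Rgs9, Gnao1, Gnaz, Gnb5 and Arrb2). Others are named by role, and pathway genes where they passed. Each library is 1 mouse per the labels, and counts of mice within a group differed by more than counting error (chi-square over its degrees of freedom 8.33 to 51.2). Gene positions and overlaps are from GENCODE vM21 (GRCm38), in which all 56 members matched, and upstream windows are from RefSeq. No protein sequences were used, and 1 gene of the cell type marker lists is not reported here.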

Additional observations from a re-analysis of the deposited data

Results flagged for a closer look

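Of 45 sets of a member and a group of 4 or 5 mice, 3 held a mouse far from the others by Dixon's ratio, which chance gives in about 1 of 20 sets. Arrb2 was low in Ctrl + Morphine mouse 2, at 12.1 CPM against 18.4 to 19.5 CPM in the other 3 mice. That mouse also had the lowest microglia marker sum of its group, 311 CPM, and the highest neuron marker sum, 2610 CPM. Gna15 was high in Ctrl + Morphine mouse 1, at 1.8 CPM against 0.852 to 0.856 CPM, which are 18 reads against 7 or 8. Rgs17 was high in Kdm7a-shRNA + Saline mouse 4, at 33.3 CPM against 14.1 to 17.5 CPM, and that mouse had the lowest microglia marker sum of its group, 803 CPM. It also had the highest neuron marker sum of its group, 2440 CPM, and the lowest astrocyte and endothelial marker sums, 8090 and 65.5 CPM. The part of these differences between libraries in the 3 values was not tested.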

How the results depend on the processing

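Over the alternatives that kept all 16 mice, the number of members that passed under saline was 7 to 10, against 8. Under morphine it was 3 in the chosen fit, 2 with known genes only (Gng5 lost), 4 on library size only (Gnb2 added), 5 with a replicate block (with Gna12 and Gna15 added) and 6 by DESeq2 (with Gna12, Gna15 and Rgs1 added). The interaction gave 1 member by DESeq2, Gnb2, and 0 otherwise. With 1 mouse left out, the counts were 5 to 11 under saline, 1 to 8 under morphine, 0 to 1 for morphine under the control virus, 0 under the knockdown virus, and 0 to 2 for the interaction. The replicate numbers name different animals, and the main fit used no block for them. Same-numbered mice of different groups correlated at -0.13 to 0.471 in their deviations from group means (median -0.00351, 7 of 21 pairs over 0.1). Mice of different numbers correlated at -0.553 to 0.367 (median -0.00429, 14 of 74 pairs over 0.1), and 8 of 16 mice correlated best with their own number. These values cannot tell whether mice of the same number shared a step of processing.

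For single members, values near 0 changed sign. For Gnao1 under saline (0.04) they were -0.09 on library size only, -0.01 with at least 10 counts in every mouse, -0.04 with known genes only, -0.06 without Ctrl + Saline mouse 3 and 0 without Kdm7a-shRNA + Saline mouse 4. For Gnaz under saline (0.08) they were -0.05 on library size only and -0.02 without Kdm7a-shRNA + Saline mouse 1, with 0.13 as the highest value when 1 mouse was left out. Rgs9 under saline had 0.02 without Kdm7a-shRNA + Saline mouse 1, and -0.34 to 0.07 over all mice left out, with 0.07 without mouse 3. Gnaq under saline spanned -0.4 to 0.11, the latter without Ctrl + Saline mouse 2. Under morphine Gng13 spanned -0.46 to 0.02 and Rgs4 -0.34 to 0.1, each with the positive value without Kdm7a-shRNA + Morphine mouse 3. The cause was not tested. With 3 to 5 mice a group, changes of members read fewer than 50 times per mouse, such as Rgs1 and Gng8, are poorly resolved.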
